A study of Mus musculus with 10 samples.

Results

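The genes described here are 10 members of the transforming growth factor beta (TGF-beta) family pathway: the ligand genes Tgfb1, Tgfb2, Tgfb3, Inhba, Inhbb, Bmp2 and Bmp4, the receptor genes Tgfbr1 and Tgfbr2, and Bmper, which encodes a secreted protein that binds bone morphogenetic proteins (BMPs). They were picked by symbol from a deposited table of 16290 genes, and all 10 were in it and passed the filter on low values. The table comes from poly-A RNA-seq of cells that the labels call mammary epithelial, from mice of the FVB strain. Its 10 libraries are 3 of NIC-Prmt1, 3 of NIC-Carm1, 2 of NIC-Prmt6 and 2 of NIC. All 4 genotypes carry NIC, which the labels do not spell out. The other 3 add a transgene for PRMT1, CARM1 or PRMT6, enzymes that methylate arginines of histones and other proteins. The series set these transgenic models of mammary tumour formation against each other by their gene expression. The sources used here do not give the promoters that drive the transgenes, the ages of the mice, any pooling, or whether libraries of a genotype come from separate mice. P-values therefore measure only the spread between these libraries, which may be technical.

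Ligands of this family are secreted dimers that bring together type I and type II receptor kinases on the surface of a cell. TGF-betas and activins signal through SMAD2 and SMAD3, and BMPs through SMAD1, SMAD5 and SMAD9, in each case with SMAD4. In the mammary gland TGF-beta restrains ductal growth and drives the making of matrix by stromal cells, and secreted antagonists set how far BMPs and activins reach.

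Values are normalised read counts, which are reads per gene divided by the authors' size factor for the library. The read totals recovered from them ranged from 21589274 to 30260921 per library, and the lowest read count of any of the 10 genes in any library was 25. Groups have 3 libraries for NIC-Prmt1 and NIC-Carm1 and 2 for NIC-Prmt6 and NIC, and these are the n of every mean ± SD. The error of a log2 fold change is limma's standard error on the log2(value + 1) scale, and a gene passed where its Benjamini-Hochberg adjusted p over the 15694 genes tested was below 0.05. Some pairs of libraries stood apart. NIC-Carm1 replicates 2 and 3, and NIC-Prmt6 replicates 1 and 2, differed by a chi-square of 2.69 and 2.44 per degree of freedom over genes. That was more than sampling noise, against 28.0 to 105 for the 6 other pairs within a group. Pairs from different groups differed by 58.1 to 284. The nearly identical pairs were kept as separate libraries, and calls are also given with each pair averaged, which leaves NIC-Prmt6 with 1 library. NIC-Carm1 replicate 1 differed from replicates 2 and 3 by 105 and 93.1, within the range of pairs from different groups. Its milk protein genes summed to 39480 CPM (reads relative to the library's total, on one scale for all libraries) against 6090 and 6230 CPM. This library was the lowest of all 10 for 5 of the 10 genes and the highest for 2. Of the targeted genes, Prmt6 had values of 873 and 909 in NIC-Prmt6, against 387 and 451 in NIC (log2 fold change 1.09 ± 0.20, adjusted p = 0.00321), Carm1 passed in NIC-Carm1 (0.57 ± 0.093, adjusted p = 0.0049) and also in the other PRMT groups, and Prmt1 did not pass in NIC-Prmt1 (0.048 ± 0.12, adjusted p = 0.784).

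The label of epithelial cells was checked against marker genes. All 10 luminal epithelial markers were found in every library, summing to between 6111 and 11680 CPM. Markers of other cells were present too, with none of the 10 fibroblast, 10 endothelial, 10 macrophage or 6 pericyte genes at 0 in any library. Fibroblast markers summed to 12790 and 12770 CPM in NIC-Prmt6, 5422 to 7048 CPM in NIC-Prmt1 and 3611 to 4026 CPM in NIC-Carm1, against 3104 and 3854 CPM in NIC. These are mixed cells, and in such bulk samples a change in the number of cells of a type and a change in RNA per cell cannot be told apart.

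Against NIC, between 1 and 3 of the 10 genes passed in each methyltransferase genotype. NIC-Prmt1 had 2 of 10 past the threshold, Tgfb1 higher and Inhba lower, where 29.6% of all genes tested passed (15.2% higher and 14.4% lower). NIC-Carm1 had 1 of 10, Inhba lower, where 16% of all genes passed (6.65% higher and 9.36% lower). NIC-Prmt6 had 3 of 10, Tgfb1, Tgfbr2 and Bmper, all higher, where 36.8% of all genes passed (19% higher and 17.8% lower). These 3 comparisons share the same 2 NIC libraries. Without NIC-Carm1 replicate 1 the counts were 5, 1 and 5 of 10, where 36.1%, 21.6% and 42.4% of all genes passed, with Tgfb3 (0.29, adjusted p = 0.0388), Bmp4 (0.40, adjusted p = 0.0411) and Bmper (0.68, adjusted p = 0.0342) added in NIC-Prmt1, and Tgfbr1 (0.34, adjusted p = 0.0152) and Bmp4 (0.45, adjusted p = 0.0323) in NIC-Prmt6. These calls are read against the larger share of all genes. In NIC-Prmt1 the count was 1 without NIC replicate 1, NIC replicate 2, NIC-Prmt1 replicate 3 or either NIC-Prmt6 library, and in NIC-Carm1 it was 0 without NIC replicate 1 and 2 without NIC replicate 2 or NIC-Prmt1 replicate 1.

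Between the methyltransferase genotypes, NIC-Prmt1 against NIC-Carm1 had 1 of 10 past the threshold, Bmp4 higher, where 26.8% of all genes passed (14.9% higher and 11.8% lower). NIC-Prmt1 against NIC-Prmt6 had 3 of 10, Tgfb3 higher and Tgfbr2 and Bmper lower, where 7.49% of all genes passed (2.54% higher and 4.94% lower). NIC-Carm1 against NIC-Prmt6 had 8 of 10, with Tgfb3 and Inhbb higher and Tgfb1, Tgfbr2, Bmp2, Bmp4, Inhba and Bmper lower, where 39.2% of all genes passed (18.4% higher and 20.9% lower). The median log2 fold change of the 10 genes in this last comparison was -0.78, against -0.0025 over all genes. Leaving out either NIC-Prmt6 library, which leaves that group with 1, ended calls in NIC-Prmt1 and NIC-Carm1 against NIC-Prmt6. The count for NIC-Prmt1 against NIC-Prmt6 was 2 without NIC-Prmt1 replicate 2 or 3, where 5.99% and 2.93% of all genes passed. The count for NIC-Prmt1 against NIC-Carm1 was 2 without NIC-Prmt1 replicate 2, where 30% of all genes passed. With the nearly identical libraries averaged, the counts over the 6 comparisons in the same order were 1, 0, 2, 1, 0 and 2 of 10, where 16.7%, 2.19%, 10.7%, 8.76%, 0.103% and 8.1% of all genes passed. In NIC-Carm1 against NIC-Prmt6 the 10 genes passed more often than all genes in the main fit. With a minimum value of 50, 8 of 10 passed there, where 44.5% of all genes did. The 10 genes were chosen with earlier results of these data known, so this describes them and does not test them as a set. In the other comparisons, whether the 10 genes passed more or less often than all genes turned with the libraries used.

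**Figure D1:**
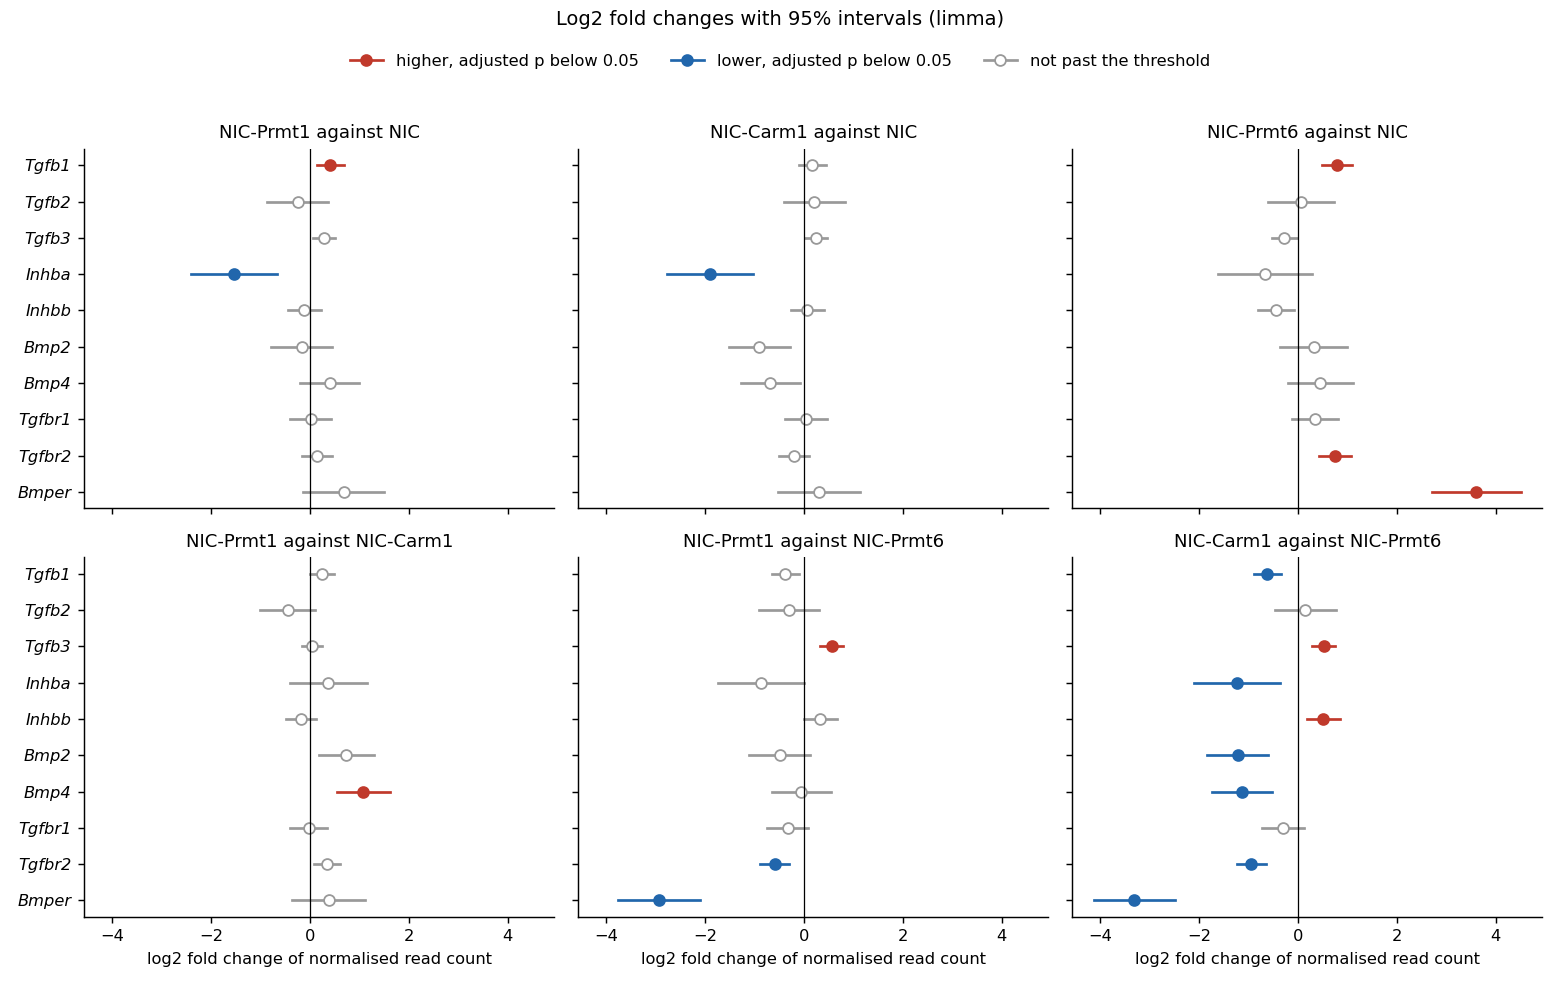
Log2 fold change of normalised read count (horizontal axis, with its 95% interval from limma) for each of the 10 genes in the 6 comparisons, coloured where the adjusted p was below 0.05. Bmper stands far to the right in NIC-Prmt6 against NIC (3.61) and far to the left in both comparisons that set another genotype against NIC-Prmt6.

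Per kilobase of annotated exon, the 10 genes spanned a wide range of levels. The mean over the 10 libraries was 2708 normalised reads per kilobase for Tgfb3, 1255 for Inhbb, 716 for Tgfbr2, 296 for Tgfbr1, 248 for Tgfb1, 152 for Bmp4, 129 for Tgfb2, 97.9 for Bmp2, 89.2 for Bmper and 14.8 for Inhba. Of neighbours in this order, only Tgfb3 and Inhbb, and Tgfbr2 and Tgfbr1, had ranges over libraries that did not overlap. Tgfb3 held between 81.6% and 90.2% of the summed TGF-beta ligand level per kilobase in each library, and its 2 lowest shares were those of NIC-Prmt6. Tgfb1 held up to 13.3% in the NIC-Prmt6 libraries, with little between them, and no more than 7.81% in any other library. Inhbb held at least 96.5% of the activin subunit level in each library, and Bmp4 between 49.3% and 69.0% of the summed Bmp2 and Bmp4 level.

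**Figure D2:**
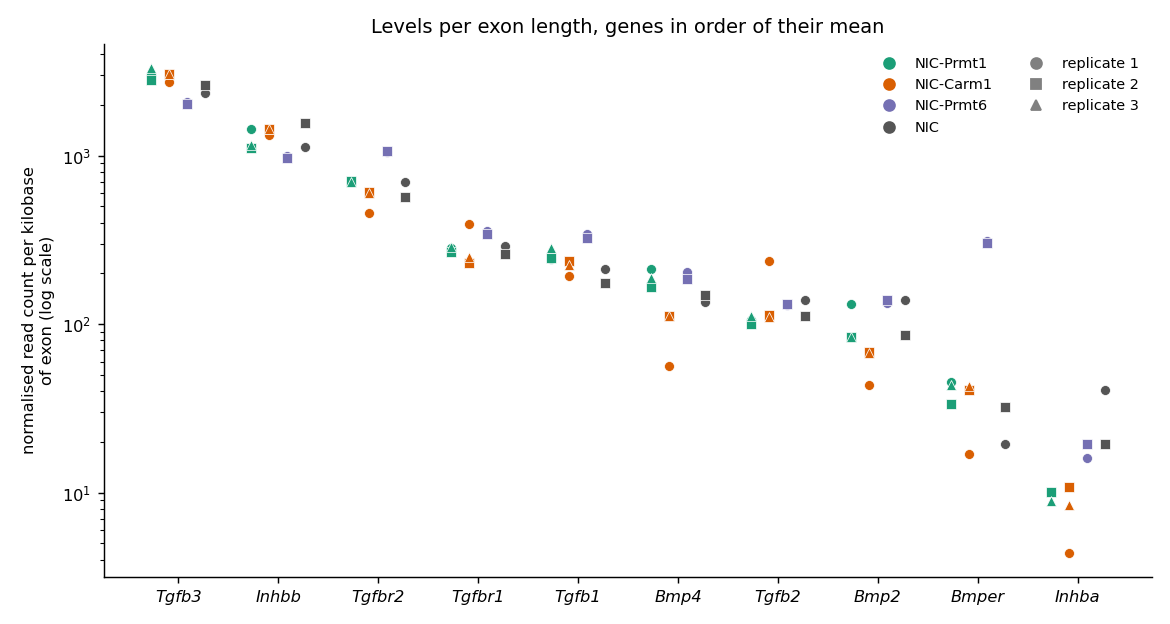
Normalised reads per kilobase of exon (log scale) for each gene in the 10 libraries, ordered by their mean. Tgfb3 lies at the top in every library, and Bmper in the 2 NIC-Prmt6 libraries (312 and 304) stands above every other Bmper value by a wide gap.

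TGF-beta ligands are made as latent precursors that stay bound to their propeptide until released. Tgfb1 (chromosome 7, 25687002 to 25705077, plus strand, GRCm38) encodes the form best known from immune and stromal cells. Its normalised read count was 1233, 1241 and 1422 in NIC-Prmt1, 969.8, 1194 and 1129 in NIC-Carm1 and 1721 and 1632 in NIC-Prmt6, against 1071 and 880.2 in NIC. Both NIC-Prmt6 libraries lay above all 8 others, and the 3 NIC-Prmt1 libraries above both of NIC. Tgfb1 averaged 1677 ± 62.9 in NIC-Prmt6, against 975 ± 135 in NIC libraries, a log2 fold change of 0.79 ± 0.14 (1.73-fold, adjusted p = 0.00221). This call held in all 21 alternatives, with an adjusted p from 7.55e-06 to 0.0399. In NIC-Prmt1 Tgfb1 averaged 1299 ± 107, a log2 fold change from NIC of 0.42 ± 0.12 (adjusted p = 0.0315). That smaller difference did not pass when nearly identical libraries were averaged (adjusted p = 0.0784) or both groups were fitted alone (adjusted p = 0.0724), nor without NIC replicate 2 (0.28, adjusted p = 0.221), NIC-Prmt1 replicate 3 (0.35, adjusted p = 0.0824) or NIC-Prmt6 replicate 1 or 2 (0.42, adjusted p = 0.0545 and 0.0544), with a range from 0.0163 to 0.221 over all alternatives. Tgfb1 was also lower in NIC-Carm1 than in NIC-Prmt6, by a log2 fold change of -0.62 ± 0.12 (adjusted p = 0.00432), which did not pass on averaging (-0.66, adjusted p = 0.0719, the highest of its alternatives, from 0.000123).

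Tgfb2 (chromosome 1, 186622792 to 186705989, minus strand) encodes the TGF-beta that relies most on the co-receptor betaglycan. It had 613, 583 and 644 normalised reads in NIC-Prmt1, 1373, 660.4 and 642 in NIC-Carm1 and 748 and 762 in NIC-Prmt6, against 809 and 647 in NIC. A single library, NIC-Carm1 replicate 1, stood at 2.11 times the mean of its partners, and the others lay in a narrow band. Tgfb2 passed in none of the 6 comparisons, with log2 fold changes of -0.24 ± 0.28 in NIC-Prmt1, 0.21 ± 0.28 in NIC-Carm1 and 0.061 ± 0.30 in NIC-Prmt6 against NIC (adjusted p = 0.536, 0.655 and 0.893). Without NIC-Carm1 replicate 1 the NIC-Carm1 value against NIC was -0.15. The high library is also the one with high milk protein genes, and the part of milk secretion in its Tgfb2 level was not tested.

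Tgfb3 (chromosome 12, 86056745 to 86079041, minus strand), the TGF-beta most abundant here, is known in the mammary gland for its rise at involution. Its normalised read count was 10161, 9560.0 and 11160.0 in NIC-Prmt1, 9215, 10362 and 10381 in NIC-Carm1 and 7071 and 6858 in NIC-Prmt6, against 8006 and 8850.2 in NIC. The NIC-Prmt6 libraries were the lowest of all 10, and all 6 libraries of NIC-Prmt1 and NIC-Carm1 lay above both of NIC. Tgfb3 averaged 10294 ± 808 in NIC-Prmt1 and 6965 ± 151 in NIC-Prmt6, a log2 fold change of 0.56 ± 0.10 (adjusted p = 0.0126). NIC-Carm1 was at 9986 ± 668 and differed from NIC-Prmt6 by 0.52 ± 0.10 (adjusted p = 0.00403). Against NIC (8428 ± 597), values were 0.29 ± 0.10 in NIC-Prmt1, 0.24 ± 0.10 in NIC-Carm1 and -0.27 ± 0.11 in NIC-Prmt6, none past the threshold (adjusted p = 0.0598, 0.135 and 0.0831). On averaging, the differences from NIC-Prmt6 did not pass (adjusted p = 0.257 for NIC-Prmt1 and 0.113 for NIC-Carm1, the highest of their alternatives, which began at 1.08e-05 and 1.49e-05). Without NIC-Prmt6 replicate 1 or 2 the NIC-Prmt1 difference did not pass either (adjusted p = 0.129 and 0.161).

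Activins are dimers of inhibin beta subunits, and Inhba and Inhbb encode the subunits of activin A and activin B. Inhba (chromosome 13, 16011851 to 16031621, plus strand) was the least abundant of the 10 genes. Its normalised read count was 64.7, 64.2 and 56.8 in NIC-Prmt1, 28.2, 69.1 and 54.3 in NIC-Carm1 and 102 and 125 in NIC-Prmt6, against 259 and 125 in NIC. Every NIC-Prmt1 and NIC-Carm1 library lay below every NIC-Prmt6 and NIC library, and the NIC libraries themselves differed widely. Inhba averaged 61.9 ± 4.41 in NIC-Prmt1, against 192 ± 94.8 in NIC libraries, a log2 fold change of -1.53 ± 0.39 (0.347-fold, adjusted p = 0.0174). In NIC-Carm1 it averaged 50.5 ± 20.7, a log2 fold change from NIC of -1.90 ± 0.39 (0.267-fold, adjusted p = 0.0121). The difference of NIC-Carm1 from NIC-Prmt6 also passed (-1.24 ± 0.39, adjusted p = 0.0307), and that of NIC-Prmt6 from NIC did not (-0.67 ± 0.43, adjusted p = 0.247). NIC replicate 1 decided both calls against NIC: without it neither passed (adjusted p = 0.142 in NIC-Prmt1 and 0.108 in NIC-Carm1, with log2 fold changes closer to 0), the highest p of all alternatives, whose lowest were 0.000457 and 5.74e-05. On averaging, NIC-Carm1 did not pass against NIC (-2.08, adjusted p = 0.0585, and 0.0517 with both groups fitted alone) or against NIC-Prmt6 (-1.42, adjusted p = 0.139), and the last difference did not pass without NIC-Carm1 replicate 1 (-0.87, adjusted p = 0.0576) or NIC-Prmt6 replicate 1 or 2 (adjusted p = 0.0995 and 0.171), with a range from 0.0143 to 0.171.

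Inhbb (chromosome 1, 119415465 to 119422248, minus strand), far more abundant than Inhba per kilobase, had 6146, 4727 and 4922 normalised reads in NIC-Prmt1, 5600.2, 6139 and 6099 in NIC-Carm1 and 4213 and 4093 in NIC-Prmt6, against 4791 and 6678 in NIC. The NIC-Prmt6 libraries were the 2 lowest of the 10. The difference that passed was between NIC-Carm1 (5946 ± 300.1) and NIC-Prmt6 (4153 ± 84.4), a log2 fold change of 0.52 ± 0.15 (adjusted p = 0.022). It did not pass on averaging (0.50, adjusted p = 0.209), without NIC-Carm1 replicate 2 or 3 (adjusted p = 0.0605 and 0.0594) or without NIC-Prmt6 replicate 1 or 2 (adjusted p = 0.101 and 0.122), within a range from 0.0023 to 0.209. Against NIC, Inhbb was at -0.45 ± 0.16 in NIC-Prmt6 (adjusted p = 0.0575), just outside the threshold, which it passed by edgeR and DESeq2 and without NIC replicate 1 or NIC-Prmt1 replicate 1 (adjusted p from 0.0156 to 0.386 over the alternatives).

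**Figure D3:**
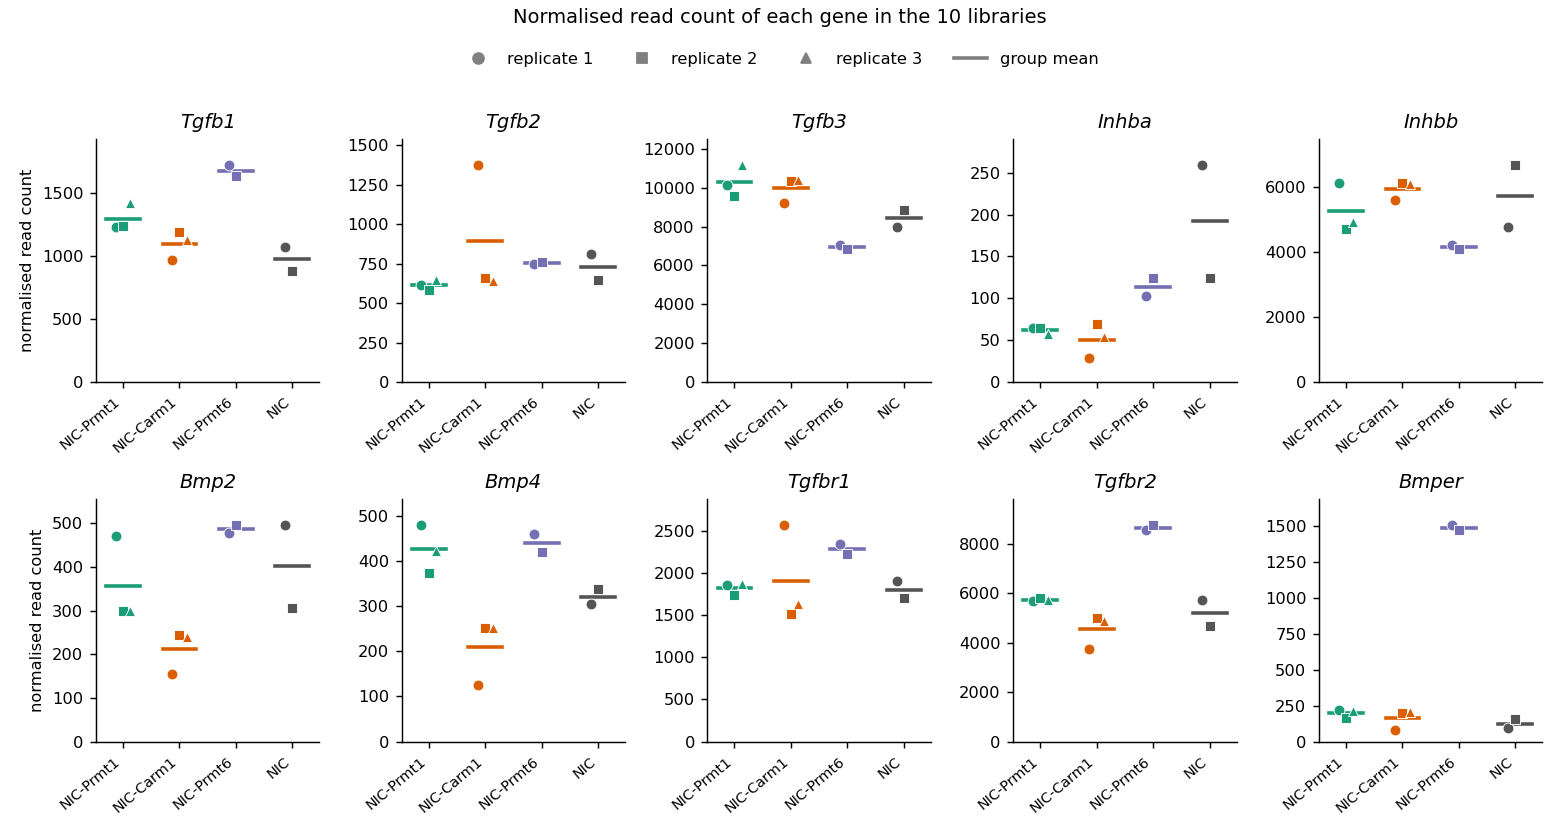
Normalised read count of each gene in the 10 libraries, one panel per gene, with marks for the replicates and a line at the group mean. The NIC-Prmt6 libraries lie above all others for Tgfb1, Tgfbr2 and Bmper and below all others for Tgfb3 and Inhbb, and NIC-Carm1 replicate 1 is the highest for Tgfb2 and Tgfbr1.

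BMP2 and BMP4 are closely related ligands that signal through SMAD1, SMAD5 and SMAD9, and BMP4 is known in the embryo for its part in placing the mammary bud. Bmp2 (chromosome 2, 133552159 to 133562885, plus strand) had 470.0, 298 and 299.7 normalised reads in NIC-Prmt1, 155, 243 and 239 in NIC-Carm1 and 477 and 496 in NIC-Prmt6, against 496 and 307 in NIC. Bmp4 (chromosome 14, 46383520 to 46390669, minus strand) had 479.5, 374 and 423 in NIC-Prmt1, 126, 252 and 251 in NIC-Carm1 and 458 and 419 in NIC-Prmt6, against 305 and 337 in NIC. Both genes were lower in every NIC-Carm1 library than in every library of the other 3 genotypes.

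Bmp4 averaged 425 ± 52.9 in NIC-Prmt1 and 209.7 ± 72.3 in NIC-Carm1, a log2 fold change of 1.08 ± 0.24 (2.11-fold, adjusted p = 0.0107) that held in all 21 alternatives (adjusted p from 0.000294 to 0.0392). NIC-Carm1 was also below NIC-Prmt6 (439 ± 27.8) by -1.13 ± 0.27 (adjusted p = 0.00928), and for Bmp2 (212 ± 49.5 and 487 ± 13.5) by -1.22 ± 0.28 (adjusted p = 0.00738). Against NIC, neither passed in NIC-Carm1: Bmp2 was at -0.90 ± 0.28 (adjusted p = 0.0522, from 0.0125 to 0.326 over the alternatives, and past the threshold by edgeR and DESeq2 and without NIC replicate 2 or NIC-Prmt1 replicate 1) and Bmp4 at -0.68 ± 0.27 (adjusted p = 0.115). The differences of NIC-Carm1 from NIC-Prmt6 did not pass on averaging (Bmp2 -1.33, adjusted p = 0.0815, and Bmp4 -1.29, adjusted p = 0.0693) or without NIC-Prmt6 replicate 1 (adjusted p = 0.0518 and 0.0744) or 2 (adjusted p = 0.0576 and 0.0527). Over all alternatives these ranged from 0.000251 to 0.0815 for Bmp2 and from 0.000483 to 0.0744 for Bmp4. NIC-Carm1 replicate 1 was at 0.645 of its partners for Bmp2 and 0.502 for Bmp4. Without it, Bmp4 was still called against NIC-Prmt1 and against NIC-Prmt6.

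TGF-beta binds TGFBR2, a type II receptor, which then activates the type I receptor TGFBR1. Tgfbr2 (chromosome 9, 116084293 to 116175360, minus strand) had 5678, 5815 and 5732 normalised reads in NIC-Prmt1, 3753, 5002 and 4898 in NIC-Carm1 and 8549 and 8774 in NIC-Prmt6, against 5728 and 4671 in NIC. The NIC-Prmt6 libraries were above all others, and the NIC-Prmt1 libraries were close together. Tgfbr2 averaged 8662 ± 159 in NIC-Prmt6, against 5199.9 ± 747 in NIC libraries, a log2 fold change of 0.74 ± 0.15 (1.67-fold, adjusted p = 0.00412). The difference from NIC did not pass on averaging (adjusted p = 0.0516, the highest of its alternatives, from 4.07e-05). Both other genotypes were below NIC-Prmt6, NIC-Prmt1 by -0.59 ± 0.13 (adjusted p = 0.0275) and NIC-Carm1 by -0.94 ± 0.13 (adjusted p = 0.000765). The NIC-Carm1 difference held in all 21 alternatives (adjusted p from 5.35e-09 to 0.0257). The NIC-Prmt1 difference did not pass on averaging (adjusted p = 0.305), with upper-quartile rescaling (adjusted p = 0.056), without NIC-Prmt1 replicate 2 or 3 (adjusted p = 0.0537 and 0.0788) or without NIC-Prmt6 replicate 1 or 2 (adjusted p = 0.198 and 0.221), within a range from 0.00118 to 0.305.

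Tgfbr1 (chromosome 4, 47353222 to 47414931, plus strand) had 1859, 1743 and 1866 normalised reads in NIC-Prmt1, 2570.3, 1510.0 and 1632 in NIC-Carm1 and 2348 and 2224 in NIC-Prmt6, against 1899 and 1707 in NIC. As for Tgfb2, NIC-Carm1 replicate 1 was the highest library, at 1.64 times the mean of its partners. Tgfbr1 passed in none of the 6 comparisons, and in NIC-Prmt6 against NIC its log2 fold change was 0.34 ± 0.21 (adjusted p = 0.216). Without NIC-Carm1 replicate 1, Tgfbr1 passed in NIC-Prmt6 against NIC (0.34, adjusted p = 0.0152), in NIC-Prmt1 against NIC-Prmt6 (-0.33, adjusted p = 0.0352) and in NIC-Carm1 against NIC-Prmt6 (-0.54, adjusted p = 0.00228). Tgfbr2 held between 53.8% and 75.9% of the summed level of both receptor genes per kilobase, and the lowest share was that of NIC-Carm1 replicate 1.

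Bmper (chromosome 9, 23223076 to 23485200, plus strand) encodes a secreted protein with domains like those of the BMP antagonist chordin. It is known from mice and cultured endothelial cells to bind BMPs and to dampen or aid their signal with context. Its normalised read count was 219.6, 162 and 211 in NIC-Prmt1, 82.2, 197 and 209 in NIC-Carm1 and 1509 and 1472 in NIC-Prmt6, against 94.5 and 156 in NIC. The lowest NIC-Prmt6 library was far above the highest of the other 8, which was a NIC-Prmt1 library.

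Bmper averaged 1490.1 ± 26.2 in NIC-Prmt6, against 125 ± 43.5 in NIC libraries, a log2 fold change of 3.61 ± 0.41 (12.2-fold, adjusted p = 0.00029) with a 95% interval from 2.70 to 4.51. That fold change was above those of 99.66% of all genes tested. NIC-Prmt1 (197 ± 31.3) was below NIC-Prmt6 by -2.92 ± 0.37 (adjusted p = 0.00295) and NIC-Carm1 (162 ± 69.7) by -3.30 ± 0.37 (adjusted p = 0.000233). The differences of NIC-Prmt6 from NIC and of NIC-Carm1 from NIC-Prmt6 held in all 21 alternatives (adjusted p up to 0.00961 and 0.0117). That of NIC-Prmt1 from NIC-Prmt6 did not pass on averaging (-2.92, adjusted p = 0.0988) or without NIC-Prmt6 replicate 1 or 2 (-2.91 and -2.94, adjusted p = 0.0543 and 0.0544), although the fold hardly moved, with adjusted p from 2.21e-15 over the alternatives. Against NIC, Bmper was at 0.68 ± 0.37 in NIC-Prmt1 (adjusted p = 0.186) and 0.30 ± 0.37 in NIC-Carm1 (adjusted p = 0.62).

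Markers of stromal cells moved with these differences. All 10 fibroblast markers rose in NIC-Prmt6 against NIC, by a log2 fold change from 1.20 to 3.27 (median 1.76), against 3.61 for Bmper, 0.79 for Tgfb1 and 0.74 for Tgfbr2. Summed fibroblast markers in NIC-Prmt6 were 3.67 times those of NIC, and the ratio for Bmper was 11.9. All 10 endothelial and all 6 pericyte markers also rose, and 6 of 10 luminal epithelial markers fell, with sums of 6187 and 6211 CPM in NIC-Prmt6 against 9503 and 11680 CPM in NIC. In NIC-Prmt1, 6 of 10 fibroblast markers and all 10 endothelial markers rose against NIC, and Bmper, as given above, did not pass. Other marker sums moved in NIC-Prmt1 too: the 10 basal and myoepithelial markers (9 rose) summed to 2.72 times NIC and the 6 pericyte markers (all rose) to 2.65 times. The 5 adipocyte markers summed to 2.91 times NIC there, but only 1 rose. Their log2 fold changes ran from -1.22 to 1.44, with a median of -0.23. Skin keratinocyte markers, 3 of which rose out of 7 in the table, summed to 826, 18.2 and 109 CPM in NIC-Prmt1, against 36.5 and 30.3 CPM in NIC. In NIC-Prmt6 the 10 macrophage markers (8 rose) summed to 2.49 times NIC and the adipocyte markers (1 rose) to 4.04 times. All 5 adipocyte markers were higher than in NIC there, with log2 fold changes from 1.67 to 2.16, though only 1 passed. Of all genes, 15.2% rose in NIC-Prmt1 and 19% in NIC-Prmt6. The part of cell makeup in the values of Bmper, Tgfb1 and Tgfbr2 was not tested.

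**Figure D4:**
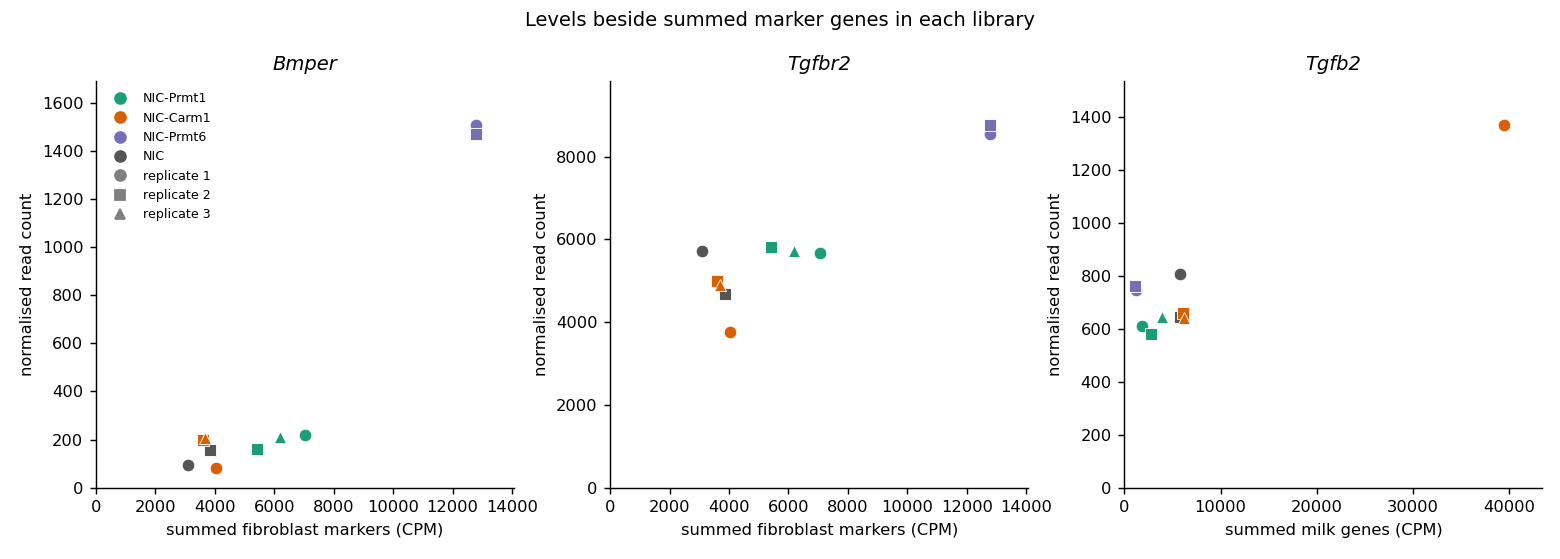
Normalised read count of Bmper and Tgfbr2 against summed fibroblast markers, and of Tgfb2 against summed milk protein genes (both in CPM), one point per library. The 2 NIC-Prmt6 libraries lie apart at the upper right for Bmper and Tgfbr2, and NIC-Carm1 replicate 1 lies apart at the upper right for Tgfb2.

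Promoter sequence is shown for the 3 genes that were higher together in NIC-Prmt6 and for Inhba, which was lower in NIC-Prmt1 and NIC-Carm1. Each line is the 250 bases before the gene's start (RefSeq, GRCm38.p6), written 5′ to 3′ on the gene's strand, at chr9:23222826-23223075 (plus strand) for Bmper, chr7:25686752-25687001 (plus strand) for Tgfb1, chr9:116175364-116175613 (minus strand) for Tgfbr2 and chr13:16011601-16011850 (plus strand) for Inhba. Capitals mark matches to the GC box GGGCGG, on either strand, and to the TATA box TATAAA.
Bmper: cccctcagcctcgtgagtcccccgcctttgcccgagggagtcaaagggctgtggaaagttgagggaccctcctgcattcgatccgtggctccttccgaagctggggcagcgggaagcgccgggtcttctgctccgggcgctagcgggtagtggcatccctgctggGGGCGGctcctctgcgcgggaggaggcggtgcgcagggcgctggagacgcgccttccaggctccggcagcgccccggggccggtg
Tgfb1: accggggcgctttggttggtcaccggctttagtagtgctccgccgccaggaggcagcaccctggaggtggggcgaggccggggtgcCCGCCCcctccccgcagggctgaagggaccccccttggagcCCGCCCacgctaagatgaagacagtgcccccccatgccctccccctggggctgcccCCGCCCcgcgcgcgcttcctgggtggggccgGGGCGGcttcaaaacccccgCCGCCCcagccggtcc
Tgfbr2: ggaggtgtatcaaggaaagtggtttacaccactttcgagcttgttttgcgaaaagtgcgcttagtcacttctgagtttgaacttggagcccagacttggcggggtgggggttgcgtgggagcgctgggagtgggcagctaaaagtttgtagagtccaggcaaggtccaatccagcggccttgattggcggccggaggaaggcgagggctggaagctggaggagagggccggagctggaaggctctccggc
Inhba: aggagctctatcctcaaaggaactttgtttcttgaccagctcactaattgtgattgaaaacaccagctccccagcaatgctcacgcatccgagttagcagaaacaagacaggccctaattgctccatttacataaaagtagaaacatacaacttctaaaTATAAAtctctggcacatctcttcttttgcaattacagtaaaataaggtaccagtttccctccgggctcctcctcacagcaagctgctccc

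The 3 genes that were higher in NIC-Prmt6 do not have alike promoters in these letters. Tgfb1 has 5 matches to the GC box and 75.2% G and C, Bmper has 1 match and 71.6%, and Tgfbr2 has no match and 58.4%. Inhba has 43.2% G and C and a TATA box that starts 91 bases before the gene's start, against a median of 52.0% over the 27025 promoters of the same length. The GC box occurs in 32.9% of those promoters and in 5 of 8 of the genes here that have an entry, and the TATA box in 13% and in 2 of 8, Inhba and Tgfb2. The SMAD box pair GTCTAGAC, searched on both strands, occurs in 0.174% of promoters and in none of the 8, and the GC-rich SMAD motif GGCGCC in 9.54% and in 1, Tgfbr1. Other motifs searched on both strands were the AP-1 motif TGANTCA (6.87% of promoters, 0 of 8), the cyclic AMP response element TGACGTCA (1.62%, 0 of 8) and the E-box CACCTG of ZEB and SNAI factors (17.1%, 1 of 8, Bmp4). Bmp2 and Tgfb3 were not matched.

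The rest of the pathway was counted from 8 lists, to be read against all genes tested, of which 15.2% rose and 14.4% fell in NIC-Prmt1 against NIC, 6.65% and 9.36% in NIC-Carm1, and 19% and 17.8% in NIC-Prmt6. All shares given with the lists are from the main fit. On averaging the share of all genes was lower in each comparison, and leaving out a library moved it either way. List counts in those settings are therefore not to be read against these shares. The lists overlap: Smad6 is in SMADs and BMP targets, and Smad7 in SMADs and TGF-beta targets. Ltbp2 is in latency genes and TGF-beta targets, and Skil in nuclear regulators and TGF-beta targets. Of the antagonists and binding proteins, 8 of 15 rose and none fell in NIC-Prmt1 against NIC, none rose and 3 fell in NIC-Carm1, and 8 rose and none fell in NIC-Prmt6. Their median log2 fold changes were 0.50, -0.26 and 0.60, beside medians of all genes of -0.0037, 0.0034 and -0.011. In NIC-Prmt1 4 rose without NIC replicate 1 or NIC-Prmt1 replicate 1 or 3, 1 without NIC replicate 2, and 3 without either NIC-Prmt6 library. In NIC-Prmt6 3 rose without NIC replicate 2 or either NIC-Prmt6 library, and in NIC-Carm1 1 fell without NIC replicate 1 or NIC-Carm1 replicate 2 or 3. Fstl1, a secreted glycoprotein related to follistatin, rose in NIC-Prmt1 by 1.19 ± 0.14 (adjusted p = 0.000662) and in NIC-Prmt6 by 1.85 ± 0.15 (adjusted p = 7.44e-05), both in all 21 alternatives. Kcp, which like Bmper encodes a protein with cysteine-rich chordin-type repeats, was at 206 and 190.1 in NIC-Prmt6, against 39.7 and 40.3 in NIC (log2 fold change 2.28 ± 0.25, adjusted p = 0.000251). Nog, which encodes the BMP antagonist noggin, fell in NIC-Carm1 by -2.43 ± 0.40 (adjusted p = 0.00516), with values of 7.88, 4.94 and 9.7 against 41.6 and 45.5 in NIC. With the nearly identical libraries averaged, 1 rose in NIC-Prmt1, 1 fell in NIC-Carm1 and 3 rose in NIC-Prmt6.

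Between methyltransferase genotypes, 10 of these 15 genes rose and none fell in NIC-Prmt1 against NIC-Carm1, and none rose and 11 fell in NIC-Carm1 against NIC-Prmt6 (7 and 5 on averaging, and 7 without NIC-Prmt6 replicate 1 in the second). In NIC-Prmt1 against NIC-Prmt6, 1 rose and 3 fell, and none passed on averaging or without either NIC-Prmt6 library. Of all genes, 14.9% rose and 11.8% fell in the first of these comparisons, 18.4% and 20.9% in the second and 2.54% and 4.94% in the last.

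BMP target genes are genes known to be induced by BMP signalling in other cells, among them the Id genes, which encode inhibitors of basic helix-loop-helix factors. In NIC-Prmt1 5 of 9 rose and 2 fell against NIC, in NIC-Carm1 none rose and 1 fell, and in NIC-Prmt6 5 rose and 2 fell, with medians of 0.77, -0.28 and 1.03 (3 and 0, 0 and 0, and 3 and 1 on averaging). Of all genes, 15.2% rose and 14.4% fell in NIC-Prmt1, 6.65% and 9.36% in NIC-Carm1, and 19% and 17.8% in NIC-Prmt6, so the falls of 2, 1 and 2 of 9 were near the background. The fall in NIC-Carm1 was lost without either NIC library. In NIC-Prmt1 2 rose without either NIC library and 3 without NIC-Prmt1 replicate 1 or 3, and none fell without NIC replicate 2, NIC-Prmt1 replicate 3 or either NIC-Prmt6 library. In NIC-Prmt6 3 rose without its replicate 1, and 1 fell when any one of its own or the NIC libraries was left out. Id3 had values of 4588, 3510.2 and 4305 in NIC-Prmt1, 1157, 1483 and 1584 in NIC-Carm1 and 5119.9 and 5248 in NIC-Prmt6, against 1703 and 2113 in NIC. It rose in NIC-Prmt1 by 1.11 ± 0.16 (adjusted p = 0.00152) and in NIC-Prmt6 by 1.45 ± 0.17 (adjusted p = 0.000386), both in all 21 alternatives, and in NIC-Carm1 was at -0.44 ± 0.16 (adjusted p = 0.0866). Id1 rose in NIC-Prmt1 (0.73 ± 0.20, adjusted p = 0.0205) and NIC-Prmt6 (1.16 ± 0.21, adjusted p = 0.00312) and fell in NIC-Carm1 (-0.93 ± 0.20, adjusted p = 0.0135). The fall in NIC-Carm1 did not pass on averaging or without NIC replicate 1 or 2 (adjusted p up to 0.0731), and the rise in NIC-Prmt1 did not pass without NIC replicate 1 or 2 or NIC-Prmt1 replicate 1 or 3 (adjusted p up to 0.0992). Msx1, a homeobox gene, rose in NIC-Prmt1 (0.83 ± 0.21, adjusted p = 0.0167, and up to 0.102 without NIC replicate 2 or on averaging) and NIC-Prmt6 (1.40 ± 0.23, adjusted p = 0.00181). The 2 that fell in NIC-Prmt1 and NIC-Prmt6 were Id2 (-0.77 ± 0.23 and -0.84 ± 0.26) and Hey1 (-0.61 ± 0.18 and -1.04 ± 0.20), the second a target of Notch as well. Of these calls, those of Id2 did not pass without either NIC or either NIC-Prmt6 library or, in NIC-Prmt1, without its replicate 1 or 3 (adjusted p up to 0.148). Hey1 in NIC-Prmt1 did not pass without NIC replicate 2, NIC-Prmt1 replicate 3 or either NIC-Prmt6 library (adjusted p up to 0.213).

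In NIC-Prmt1 against NIC-Carm1, 7 of the 9 BMP targets rose and 2 fell (median 1.15), and in NIC-Carm1 against NIC-Prmt6 2 rose and 6 fell (median -0.95), where 14.9% and 11.8%, and 18.4% and 20.9%, of all genes did. Leaving out NIC-Carm1 replicate 1 gave 6 and 2, and 2 and 5, and averaging gave 4 and 0, and 0 and 4. Without NIC-Carm1 replicate 2 or 3 none of the 9 fell in NIC-Prmt1 against NIC-Carm1, and without NIC-Prmt6 replicate 1 or 2 only 1 rose in NIC-Carm1 against NIC-Prmt6, where 4 and 5 fell. Every NIC-Carm1 library was below every library of the other genotypes for Bmp2, Bmp4, Id1 and Id3, and a relation between the ligand and target genes was not tested. Summed endothelial markers were higher than in NIC (1179 to 1441 CPM) in NIC-Prmt1 (2486 to 3564 CPM) and NIC-Prmt6 (3195 to 3205 CPM). In NIC-Carm1, at 1325 to 1685 CPM, they overlapped NIC. None of the 10 endothelial markers passed there in either direction, and their median log2 fold change was 0.18. The part of endothelial markers in the targets was not tested.

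**Figure D5:**
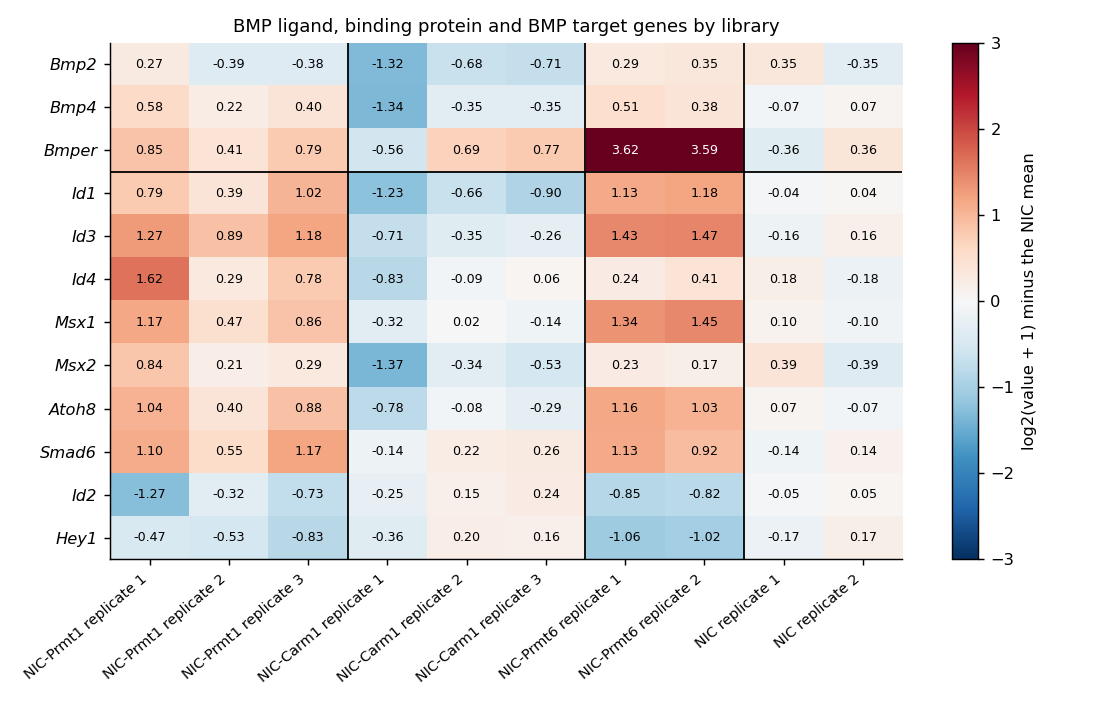
Log2(value + 1) of Bmp2, Bmp4, Bmper and the 9 BMP target genes in each library, less the NIC mean of the gene (colour, which saturates at 3 in either direction, and printed number). The NIC-Carm1 libraries are below the NIC mean for Bmp2, Bmp4, Id1 and Id3, and the NIC-Prmt6 libraries are above it for Id1, Id3, Msx1, Atoh8 and Smad6 and below it for Id2 and Hey1.

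Of TGF-beta target genes, 1 of 10 rose and 2 fell in NIC-Prmt1 against NIC, none rose and 2 fell in NIC-Carm1, and 4 rose and 3 fell in NIC-Prmt6 (medians -0.15, -0.44 and -0.20). Of all genes, 15.2% and 14.4%, 6.65% and 9.36%, and 19% and 17.8% did, so the counts in NIC-Prmt1 were near the background. Pmepa1, which encodes a membrane protein that restrains SMAD signalling, fell in all 3: its values were 5657, 7012 and 7860.3 in NIC-Prmt1, 6917, 7492 and 7232 in NIC-Carm1 and 5364 and 5381 in NIC-Prmt6, against 13395 and 12679 in NIC. No PRMT library overlapped the NIC libraries. The log2 fold changes were -0.94 ± 0.13, -0.85 ± 0.13 and -1.28 ± 0.14 (adjusted p = 0.00128, 0.00321 and 0.000245), and all 3 held in the 21 alternatives. Summed luminal epithelial markers were also lower, at 0.764, 0.616 and 0.585 of NIC, with 4, 6 and 6 of 10 lower and 3, 0 and 0 higher, and their part in Pmepa1 was not tested. Among the 4 that rose in NIC-Prmt6 were Fn1 (fibronectin, 2.75 ± 0.29, adjusted p = 0.000227), Tgfbi (1.37 ± 0.28, adjusted p = 0.00521) and Col1a1 (1.60 ± 0.26, adjusted p = 0.00156), and Col1a1 is also one of the fibroblast markers. The others that fell there were Ltbp2 (-2.12 ± 0.27, adjusted p = 0.000536) and Skil (-0.64 ± 0.19, adjusted p = 0.0251), the second not without NIC replicate 1 or either NIC-Prmt6 library (adjusted p up to 0.15). The gene that rose in NIC-Prmt1, Fn1 (0.89 ± 0.27, adjusted p = 0.0318), did not pass without either NIC library, NIC-Prmt1 replicate 1 or 2 or either NIC-Prmt6 library (adjusted p up to 0.181). Ltbp2 also fell in NIC-Prmt1, but not without NIC replicate 2 (adjusted p = 0.0603). On averaging, 4 rose and 2 fell in NIC-Prmt6. In NIC-Carm1 4 fell without NIC-Prmt1 replicate 1.

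Of the 8 SMAD genes, 1 rose and 1 fell in NIC-Prmt1 against NIC, none rose and 2 fell in NIC-Carm1, and 3 rose and 1 fell in NIC-Prmt6, where 15.2% and 14.4%, 6.65% and 9.36%, and 19% and 17.8% of all genes did. A single gene of 8 in either direction is near the background. Smad3, a carrier of TGF-beta and activin signals, fell in all 3. It had 2539, 2941 and 2629 normalised reads in NIC-Prmt1, 3148, 3332 and 3252 in NIC-Carm1 and 2928 and 3022 in NIC-Prmt6, against 5257 and 5033 in NIC. Every PRMT library lay well below both NIC libraries. The log2 fold changes were -0.93 ± 0.087, -0.67 ± 0.087 and -0.79 ± 0.095 (adjusted p = 0.000328, 0.0019 and 0.000387), and all 3 held in the 21 alternatives. Summed luminal epithelial markers were also lower, at 6763 to 9326 CPM in NIC-Prmt1, 6111 to 7185 CPM in NIC-Carm1 and 6187 to 6211 CPM in NIC-Prmt6, against 9503 to 11680 CPM in NIC. In NIC-Prmt1 these markers were split, with 4 of 10 lower and 3 higher, against 6 lower and none higher in NIC-Carm1 and NIC-Prmt6. Their part in Smad3 was not tested. Smad7, an inhibitory SMAD, fell in NIC-Carm1 by -1.32 ± 0.17 (adjusted p = 0.00176) in all 21 alternatives, and in NIC-Prmt1 was at -0.21 ± 0.17 (adjusted p = 0.37). Smad6, the inhibitory SMAD of the BMP branch, rose in NIC-Prmt1 (0.94 ± 0.21, adjusted p = 0.0103) and NIC-Prmt6 (1.03 ± 0.23, adjusted p = 0.00766), but did not pass in NIC-Prmt1 without NIC replicate 1 (adjusted p = 0.0722), nor in NIC-Prmt6 without its replicate 1 or on averaging (adjusted p up to 0.0712), both of which left none of the 8 higher there. In NIC-Carm1 against NIC-Prmt6 7 of 8 fell (20.9% of all genes), among them Smad2 (-0.53 ± 0.11, adjusted p = 0.00511, and up to 0.104 on averaging or without NIC-Prmt6 replicate 1), and only 1 of the 8 did on averaging or without NIC-Prmt6 replicate 1. Without NIC-Prmt6 replicate 2 or NIC-Carm1 replicate 2 or 3, 3 of the 8 fell.

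Other ligand genes were counted for the 17 of 26 listed that are in the table. Against NIC, 5 rose and 2 fell in NIC-Prmt1, 2 rose and 2 fell in NIC-Carm1, and 8 rose and 1 fell in NIC-Prmt6 (4 and 2, 1 and 1, and 0 and 0 on averaging), where 15.2% and 14.4%, 6.65% and 9.36%, and 19% and 17.8% of all genes did. Bmp3, a BMP that signals weakly and can oppose others, rose in all 3, with values of 844, 701 and 596 in NIC-Prmt1, 543, 464 and 459 in NIC-Carm1 and 382 and 334 in NIC-Prmt6, against 201 and 212 in NIC. The rises were 1.77 ± 0.16, 1.23 ± 0.16 and 0.79 ± 0.17 (adjusted p = 0.00028, 0.00176 and 0.00659), and the last did not pass on averaging or without NIC-Prmt6 replicate 1 (adjusted p up to 0.0691). Gdf15, a stress-induced ligand, fell in NIC-Carm1 by -2.30 ± 0.21 (adjusted p = 0.000429) and in NIC-Prmt1 by -0.95 ± 0.21 (adjusted p = 0.00996, and 0.0652 without NIC replicate 2). Gdf11, a ligand close to myostatin, had 41.7, 38.7 and 35.9 normalised reads in NIC-Carm1 and 115 and 124 in NIC-Prmt6, against 72.8 and 63.7 in NIC, and both differences from NIC (-0.80 ± 0.23, adjusted p = 0.0413, and 0.80 ± 0.25, adjusted p = 0.0312) did not pass without either NIC or either NIC-Prmt6 library or on averaging, nor the first without NIC-Prmt1 replicate 3 or NIC-Carm1 replicate 2 or 3 (adjusted p up to 0.200 and 0.183). The falls in NIC-Prmt1 were those of Gdf15 and Gdf5, and 1 was left without NIC replicate 1 and 0 without NIC replicate 2 (adjusted p for Gdf5 up to 0.0722). In NIC-Carm1 1 rose and 1 fell without either NIC library or NIC-Carm1 replicate 2 or 3, 1 fell without either NIC-Prmt6 library, and 4 fell without NIC-Prmt1 replicate 1. The fall in NIC-Prmt6 was lost without either NIC or either NIC-Prmt6 library. Of the ligands that rose, 3 and 2 were left in NIC-Prmt1 without NIC replicate 1 and 2, and in NIC-Prmt6 3 and 4 without those and 0 and 2 without its replicate 1 and 2.

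Among other receptors and co-receptors, 4 of 14 tested rose and 1 fell in NIC-Prmt1, none rose and 1 fell in NIC-Carm1, and 6 rose and none fell in NIC-Prmt6 against NIC (2 and 0, 0 and 0, and 4 and 0 on averaging), where 15.2% and 14.4%, 6.65% and 9.36%, and 19% and 17.8% of all genes did. The falls of 1 in NIC-Prmt1 and NIC-Carm1 were lost without NIC-Carm1 replicate 2, among others. In NIC-Prmt1 1 rose without NIC replicate 1 and 2 without NIC replicate 2. Tgfbr3, which encodes the co-receptor betaglycan, rose in NIC-Prmt1 by 1.02 ± 0.13 (adjusted p = 0.000969) and in NIC-Prmt6 by 1.29 ± 0.14 (adjusted p = 0.000243), both in all 21 alternatives. Eng and Acvrl1, known as a co-receptor and a type I receptor of endothelial cells, rose in NIC-Prmt6 by 1.08 ± 0.18 (adjusted p = 0.00193) and 0.81 ± 0.14 (adjusted p = 0.00245). In these libraries summed endothelial markers were 3195 and 3205 CPM, against 1179 and 1441 CPM in NIC, and the part of endothelial cells in both genes was not tested.

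Genes of TGF-beta latency and activation moved in both directions. Of 13, 5 rose and 3 fell in NIC-Prmt1, 2 rose and 3 fell in NIC-Carm1, and 6 rose and 3 fell in NIC-Prmt6 against NIC (3 and 2, 0 and 1, and 5 and 1 on averaging), where 15.2% and 14.4%, 6.65% and 9.36%, and 19% and 17.8% of all genes did. In NIC-Prmt1 only 1 fell without NIC replicate 2, which ended the calls of Ltbp2 and Itgb6, and 2 fell without NIC replicate 1 or NIC-Prmt1 replicate 1 or 3. In NIC-Prmt1 3 rose without either NIC library or NIC-Prmt1 replicate 1 or 3, in NIC-Carm1 1 fell when any one of the NIC, NIC-Carm1 or NIC-Prmt6 libraries was left out, and in NIC-Prmt6 1 fell without NIC replicate 1. Fbn1, which encodes the microfibril protein fibrillin that anchors latent TGF-beta, rose in all 3 (1.24 ± 0.12, 0.69 ± 0.12 and 1.84 ± 0.13, with adjusted p = 0.000371, 0.00584 and 5.38e-05). The rise in NIC-Carm1 did not pass on averaging or without NIC replicate 1 (adjusted p up to 0.0693). Dcn, a TGF-beta-binding proteoglycan and also a fibroblast marker here, rose in NIC-Prmt6 by 1.53 ± 0.19 (adjusted p = 0.000423). Lrrc32, which displays latent TGF-beta on cells, rose in NIC-Prmt6 (1.04 ± 0.21, adjusted p = 0.00492, and 0.0536 on averaging). Of 9 nuclear and ubiquitin regulators, none rose and 1 fell in NIC-Prmt1, none rose and 2 fell in NIC-Carm1, and 3 rose and 1 fell in NIC-Prmt6. Apart from the 3 rises in NIC-Prmt6, set against 19% of all genes, and the 2 falls in NIC-Carm1, set against 9.36%, these are near or below the background given above. Without NIC replicate 1 or on averaging none fell in any of the 3, and without NIC-Carm1 replicate 2 or 3 none fell in NIC-Carm1. On averaging 1 rose in NIC-Prmt6. In NIC-Prmt1 3 rose without its replicate 2, 2 rose without NIC-Carm1 replicate 1, and 2 fell without NIC replicate 2 or NIC-Prmt1 replicate 1. In NIC-Prmt6 Ski (0.50 ± 0.11, adjusted p = 0.00538, and 0.0785 on averaging), Zeb1 (1.16 ± 0.18, adjusted p = 0.00145) and Zeb2 (1.45 ± 0.33, adjusted p = 0.00768, and up to 0.0636 on averaging or without NIC-Prmt6 replicate 1) rose. ZEB factors are transcriptional repressors found in mesenchymal cells. The fibroblast, endothelial, pericyte and most macrophage markers given above also rose in NIC-Prmt6, and their part in Zeb1 and Zeb2 was not tested.

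The genes whose log2(value + 1) followed each of the 10 most closely over the 10 libraries were named by Pearson's r among 11728 genes (11729 for Inhba) with a mean of at least 100, as a description only. The libraries fall in few groups, so r follows differences between groups. Bmper was most like Fgf10 (r = 0.993), a growth factor gene of stromal cells, and Ssc5d (0.992). Fgf10 had 2066 and 2058 normalised reads in NIC-Prmt6, and between 54.1 and 241 in all other libraries. Tgfb1 was most like Sh3rf1 (0.985) and Gsdmd (0.963), Tgfbr2 like Kctd12 (0.978) and Elf4 (0.974), and Tgfbr1 like Usp10 (0.939) and Actr2 (0.919). Tgfb2 was most like Fasn (0.959), the fatty acid synthase gene, which had 24482 normalised reads in NIC-Carm1 replicate 1 and between 6690.0 and 10580.0 in the others, and then Kctd3 (0.951). Tgfb3 was most like Ctf1 (0.963) and Tmem30b (0.959), Inhbb like Gata3 (0.961), a luminal transcription factor gene, and Slc18b1 (0.921), and Inhba like Nlrp3 (0.966) and Zfp764 (0.952). Bmp4 was most like Hrh1 (0.983) and Igf2 (0.98), and Bmp2 like Ppp1r10 (0.974) and Ankrd33b (0.968).

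Some members share exon bases with annotated genes on the other strand that have no row in the table: Tgfb2 with Gm29491 (124 bases), Tgfb3 with Gm37804 (163) and Gm48008 (257), and Bmp4 with Gm15217 (89). The strand setting of the counting is not stated, so reads of those bases cannot be told apart by gene.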

How the data were processed

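Per the labels' protocols, enzymes and short spins freed the cells, and TruSeq libraries were made from poly-A RNA. The submitters' processing notes name mm10, TopHat2 2.0.10, HTSeq 0.6.0 and DESeq 1.18.0; for annotation, strand setting and filter, the sources used here give nothing. The deposited signal is reads per gene divided by a size factor per library. In each library 100% of values were whole multiples of 1 step within 0.01, so whole reads were recovered, and no gene's highest library was under 10 reads. CPM were computed from those reads.

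The main test was limma-trend (limma 3.58.1, R 4.3.3) on log2(value + 1) on 15694 genes (those reaching 10 in 2 or more libraries), in 1 fit of 4 group means (6 residual degrees of freedom), with Benjamini-Hochberg adjustment in each of the 6 comparisons; all adjusted p are from it unless another tool is named. The 21 alternatives were edgeR 4.0.16 and DESeq2 1.42.0 on the recovered reads, nearly identical pairs averaged, a replicate block, the 2 groups alone, TMM and upper-quartile rescaling, pseudocounts of 0.5 and 5, no filter, a minimum of 50, and leaving out each library. The 10 genes and the lists were chosen with earlier results of these data known. Of each list up to 3 genes with the smallest adjusted p over the comparisons were named, with any gene a count needed (a few genes so chosen are not reported here); for each of the 10 genes the 2 most correlated genes were named. List genes with no row in the table (9 other ligands, Sost and the marker Flg) were not used here. The likeness of libraries was measured by chi-square over the recovered reads. Exon lengths and coordinates are from GENCODE (GRCm38), promoters from RefSeq (GRCm38.p6; 8 of 10 matched). Same-numbered libraries of different groups did not deviate together (13 pairs, r from -0.132 to 0.1), so no pairing by number was seen. In groups of 2 the deviations from the group mean mirror each other, so these values repeat and cannot exclude a pairing. Intervals cover only the spread between these libraries.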

Additional observations from a re-analysis of the deposited data

How the results depend on the processing

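Of 60 results (10 genes in 6 comparisons), 18 passed, and 5 of them passed in all 21 alternatives: Tgfb1 and Bmper in NIC-Prmt6 against NIC, Bmp4 in NIC-Prmt1 against NIC-Carm1, and Tgfbr2 and Bmper in NIC-Carm1 against NIC-Prmt6. None of the 18 changed sign. The counts below run over NIC-Prmt1, NIC-Carm1 and NIC-Prmt6 against NIC, then NIC-Prmt1 against NIC-Carm1, NIC-Prmt1 against NIC-Prmt6 and NIC-Carm1 against NIC-Prmt6. In that order 2, 1, 3, 1, 3 and 8 of the 10 genes passed, and 4645, 2513, 5778, 4199, 1175 and 6157 of all genes. With nearly identical pairs averaged these were 1, 0, 2, 1, 0 and 2, and 2606, 341, 1667, 1364, 16 and 1261, in a design with fewer libraries. In the groups alone, 1 and 0 of the 10 and 2785 and 1596 of all genes passed in NIC-Prmt1 and NIC-Carm1 against NIC. In NIC-Prmt6 these were 6 of the 10 and 7166 (47.4%) of all genes. edgeR, DESeq2 and a minimum of 50 gave 2 of the 10 in NIC-Carm1 against NIC, where 15.6%, 20.5% and 18.6% of all genes passed. In NIC-Prmt1 against NIC-Carm1 DESeq2 gave 3 and the minimum of 50 gave 2, where 30.1% and 30.2% of all genes passed. DESeq2 called 2119 of all genes in NIC-Prmt1 against NIC-Prmt6. With the replicate block, for whose numbers no pairing was seen, 1 of the 10 passed in NIC-Prmt1 against NIC, and 1667 and 571 of all genes in NIC-Carm1 against NIC and NIC-Prmt1 against NIC-Prmt6. The block ended the calls of Tgfb1 in NIC-Prmt1 against NIC (adjusted p = 0.0816), Tgfbr2 in NIC-Prmt1 against NIC-Prmt6 (0.069), and Inhba and Inhbb in NIC-Carm1 against NIC-Prmt6 (0.0706 and 0.0521). Leaving out each library gave 1 to 5, 0 to 2, 3 to 5, 1 to 2, 0 to 4 and 4 to 8 of the 10, and 2271 to 5646, 708 to 3384, 2656 to 6632, 2638 to 4692, 47 to 2241 and 2569 to 6799 of all genes. The causes were not tested.

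Upper-quartile rescaling changed the split of all genes called to 1312 higher and 1230 lower in NIC-Carm1 against NIC (1044 and 1469 before) and to 577 and 550 in NIC-Prmt1 against NIC-Prmt6 (399 and 776 before). There it turned Bmp4, which did not pass, to 0.022 (-0.050 before). The other sign changes came from leaving out a library, in results that did not pass. In NIC-Prmt1 against NIC they spanned -0.060 to 0.094 for Tgfbr1, -0.51 to 0.18 for Bmp2 and -0.35 to 0.13 for Inhbb. In NIC-Carm1 against NIC they spanned -0.15 to 0.40 for Tgfb2, -0.20 to 0.19 for Tgfbr1, -0.17 to 0.31 for Inhbb and -0.056 to 0.73 for Bmper. In NIC-Prmt6 against NIC they spanned -0.10 to 0.22 for Tgfb2 and -0.028 to 0.66 for Bmp2. In NIC-Prmt1 against NIC-Carm1 they spanned -0.017 to 0.095 for Tgfb3, -0.17 to 0.21 for Tgfbr1 and -0.050 to 0.62 for Bmper. In NIC-Prmt1 against NIC-Prmt6 the span was -0.14 to 0.039 for Bmp4, and in NIC-Carm1 against NIC-Prmt6 -0.21 to 0.33 for Tgfb2. Depth bears most on Inhba, whose lowest count was 25 reads.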
